A study of Mus musculus with 3 samples.

Results

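The genes described here encode 8 receptors for steroid hormones, retinoids and vitamin D, and they were taken from the deposited table by gene symbol. All 8 were found among its 18890 genes, so they make up a small family set within a list of every gene that held a peak. The assay was ATAC-seq, a map of open chromatin made by a transposase that cuts accessible DNA and leaves adaptors for sequencing. The samples were wild-type organoids grown from basal cells of the mouse prostate, which received vehicle, UK5099 at 10 µM or sodium lactate at 20 mM over 7 days. UK5099 inhibits the mitochondrial pyruvate carrier, and lactate is what cells make from pyruvate that stays in the cytosol. Prostates came from immunocompetent male C57BL/6J mice aged 3 to 6 months. The number of animals behind each culture is not stated. Each treatment was represented by 1 library. Differences therefore have no replicate check and carry no p-value, and all statements describe these 3 libraries.

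Nuclear receptors are transcription factors that are switched by small lipid-soluble ligands. The glucocorticoid and mineralocorticoid receptors rest in the cytoplasm bound to heat shock chaperones, move to the nucleus when hormone binds and attach to DNA as pairs. The oestrogen and progesterone receptors also bind DNA as pairs. The retinoic acid and vitamin D receptors instead sit on DNA together with a retinoid X receptor and exchange corepressors for coactivators on binding ligand. In epithelia, retinoids and vitamin D are known as regulators of differentiation, and the prostate is a classical steroid-responsive gland. Open chromatin around a receptor gene is not a measure of how much receptor a cell makes.

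Stretches of open DNA at which the libraries differed, and a pair of start-site stretches called in every library, are shown first so that the sequence behind the values can be seen. They were chosen after the values were known. Coordinates are those of GRCm38 (the build also called mm10), each sequence runs 5′ to 3′ on the strand of its gene, and bases that any annotated transcript places in an untranslated region were left out. Capitals mark every match, on either strand, to the half-site AGGTCA bound by retinoid, vitamin D and oestrogen receptors, to the half-site AGAACA of the steroid receptors, to the AP-1 motif TGANTCA or to the GC box GGGCGG. No matches overlapped. Among 42693 windows of 300 bases centred on the called sites of all genes, 15.8% held AGGTCA, 22.5% AGAACA, 29.9% TGANTCA and 28.5% GGGCGG. A match describes letters only.

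The first group holds 5 sites that were called as peaks in both treated libraries and not in vehicle. They are the site upstream of *Rarg* (chr15:102262634-102262933, minus strand, outside annotated transcripts), a pair in introns of *Esr1* (chr10:4782138-4782437 and chr10:4908522-4908821, plus strand), 1 in an intron of *Rxra* (chr2:27715274-27715573, plus strand) and 1 in an intron of *Vdr* (chr15:97858474-97858773, minus strand).
Rarg upstream: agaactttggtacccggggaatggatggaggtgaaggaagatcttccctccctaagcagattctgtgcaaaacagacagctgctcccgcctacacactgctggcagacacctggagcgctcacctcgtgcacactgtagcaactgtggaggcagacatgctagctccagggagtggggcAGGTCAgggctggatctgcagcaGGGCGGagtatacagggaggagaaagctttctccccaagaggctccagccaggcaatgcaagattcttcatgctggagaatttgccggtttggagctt
Esr1 intron a: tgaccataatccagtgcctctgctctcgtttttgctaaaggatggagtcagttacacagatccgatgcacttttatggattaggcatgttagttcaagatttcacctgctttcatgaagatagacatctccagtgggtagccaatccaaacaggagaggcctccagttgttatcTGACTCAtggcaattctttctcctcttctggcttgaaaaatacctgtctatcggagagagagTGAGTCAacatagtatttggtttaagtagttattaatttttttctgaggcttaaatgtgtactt
Esr1 intron b: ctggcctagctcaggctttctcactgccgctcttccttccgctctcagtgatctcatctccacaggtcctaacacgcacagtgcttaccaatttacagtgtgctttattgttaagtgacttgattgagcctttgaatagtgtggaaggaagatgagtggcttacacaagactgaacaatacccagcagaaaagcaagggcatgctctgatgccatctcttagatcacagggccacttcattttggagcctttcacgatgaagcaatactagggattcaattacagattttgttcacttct
Rxra intron: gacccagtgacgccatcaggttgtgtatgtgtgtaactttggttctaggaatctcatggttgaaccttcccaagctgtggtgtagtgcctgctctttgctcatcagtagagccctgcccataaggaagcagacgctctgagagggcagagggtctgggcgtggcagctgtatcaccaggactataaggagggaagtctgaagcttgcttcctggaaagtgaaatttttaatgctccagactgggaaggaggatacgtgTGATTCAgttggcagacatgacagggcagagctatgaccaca
Vdr intron: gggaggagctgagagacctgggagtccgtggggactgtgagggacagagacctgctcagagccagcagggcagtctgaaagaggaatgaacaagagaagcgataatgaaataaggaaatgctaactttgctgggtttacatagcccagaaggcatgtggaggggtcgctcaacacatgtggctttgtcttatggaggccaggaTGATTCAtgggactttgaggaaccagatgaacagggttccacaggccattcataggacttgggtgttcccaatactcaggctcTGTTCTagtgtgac
The upstream *Rarg* sequence held 1 AGGTCA and 1 GGGCGG. The first *Esr1* intron held 2 matches to TGANTCA, the *Rxra* intron 1 and the *Vdr* intron 1 beside 1 AGAACA, and the second *Esr1* intron held none of the 4 motifs.

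The second group shows a site called in vehicle alone and a pair called throughout. The site in the first coding exon of *Pgr* (chr9:8900963-8901205, plus strand) was called in vehicle alone. The stretch before the start of *Rara* (chr11:98937418-98937697, plus strand) was called in all 3 libraries, and so was the start-site region of *Nr3c2*, whose promoter is given from the RefSeq promoter table (chr8:76902080-76902287, plus strand).
Pgr first exon: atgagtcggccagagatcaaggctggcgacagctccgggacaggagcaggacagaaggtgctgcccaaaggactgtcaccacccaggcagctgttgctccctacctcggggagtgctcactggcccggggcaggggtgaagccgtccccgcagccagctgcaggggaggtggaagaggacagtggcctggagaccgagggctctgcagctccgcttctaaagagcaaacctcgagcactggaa
Rara start: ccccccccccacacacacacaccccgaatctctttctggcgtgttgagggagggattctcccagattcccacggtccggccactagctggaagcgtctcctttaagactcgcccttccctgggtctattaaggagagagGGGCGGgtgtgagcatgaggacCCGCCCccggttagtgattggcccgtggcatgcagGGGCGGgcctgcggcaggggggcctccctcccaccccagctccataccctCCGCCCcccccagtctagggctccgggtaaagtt
Nr3c2 promoter: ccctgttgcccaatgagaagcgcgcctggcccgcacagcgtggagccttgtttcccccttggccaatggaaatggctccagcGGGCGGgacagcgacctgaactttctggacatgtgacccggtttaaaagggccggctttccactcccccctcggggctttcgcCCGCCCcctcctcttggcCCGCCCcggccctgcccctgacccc
The *Pgr* exon held none of the 4 motifs and 10 CpG dinucleotides. The *Rara* stretch held 4 GC boxes and the *Nr3c2* promoter 3. Of 13 promoter windows of the receptor genes in the RefSeq table, which covers 7 of the 8 genes, 8 held GGGCGG, where 35.6% of 32817 promoter windows of the same length did, and 3 held AGGTCA, where 16.3% did. None of the 13 held AGAACA or TGANTCA, present in 19.0% and 7.81% of all promoter windows. The 13 windows are not independent, since several belong to the same gene. A pair of *Rara* windows overlaps in most bases and holds 4 GC boxes in each.

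The deposited value of a gene is its average peak height, the stack of aligned reads at the highest point of each open region, averaged over all regions assigned to the gene and scaled per library by the authors. It is an average per region and does not grow with the length of a gene. Over all genes the median height in vehicle was 51.3, compared with 58.7 in UK5099 and 60.3 in lactate, and depth relative to UK5099 was 1.74 in vehicle and 2.12 in lactate if the scaling evened out depth. Intervals in parentheses are 95% intervals for the stacked reads and cover counting error only. As the samples are bulk cultures, fewer open cells and less opening per cell cannot be told apart. In the same libraries, 6 of 6 basal marker genes were listed with a summed height of 285 in vehicle, 400.3 in UK5099 and 374 in lactate, and 6 of 6 luminal marker genes with a summed height of 435 in vehicle, 306 in UK5099 and 469 in lactate. The basal markers, with *Krt5* and *Krt14* among them, and the luminal markers, with *Krt8* and *Krt18*, were thus all listed. Median ratios to vehicle in UK5099 and lactate were 1.38 and 1.29 for basal and 0.742 and 1.11 for luminal markers. Over all genes they were 1.15 and 1.18. Luminal markers ran from 0.376 (*Krt18*) to 0.992 (*Krt19*) in UK5099 and from 0.590 (*Prom1*) to 1.36 (*Krt19*) in lactate. Stromal markers (5 of 6 listed) summed to 208, 202 and 208, endothelial markers (4 of 5) to 149, 144 and 139, immune markers (3 of 5) to 96.0, 86.0 and 85.0 and neuroendocrine markers (3 of 4) to 110, 118 and 143 in vehicle, UK5099 and lactate, and no listed marker was at 0 in any library. The part of cell composition in the results below was not tested.

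*Rxra*, the shared partner of the retinoid and vitamin D receptors, had the highest level of the 8 genes in all 3 libraries, and *Pgr* the lowest. In vehicle the order was *Rxra*, *Rara*, *Nr3c1*, *Nr3c2*, *Vdr*, *Rarg*, *Esr1* and *Pgr*, and each of the first 6 had a counting interval that overlapped that of its neighbour. *Esr1* lay below *Rarg*, and *Pgr* below *Esr1*, without overlap. In UK5099 *Rarg* moved up to the third place and *Rara* down to the fifth, again with overlapping intervals among neighbours down to *Nr3c2*. In lactate *Rxra* stood clear of *Nr3c2* in the second place, and the ranks from *Nr3c2* to *Rarg* overlapped. *Esr1* stood at the 24.0 percentile of all genes in vehicle and *Pgr* at the 3.12 percentile in vehicle and the 0.678 percentile in UK5099.

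**Figure D1:**
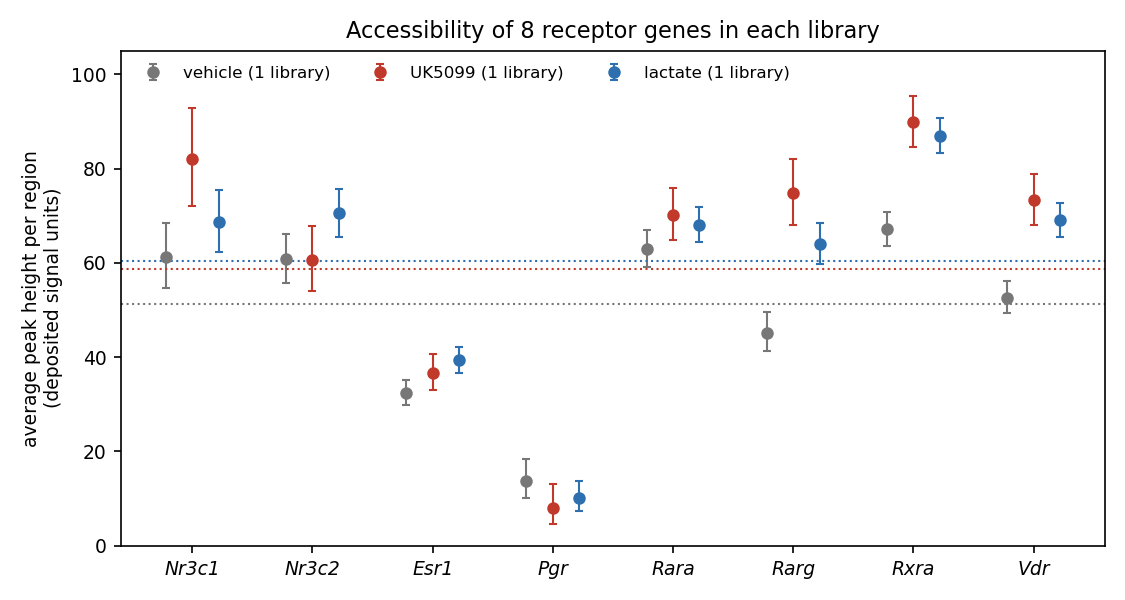
Average peak height per region (deposited signal units) of each receptor gene in the vehicle, UK5099 and lactate libraries, 1 library each. Bars are 95% counting intervals and dotted lines the median height of all genes in the library of the same colour. *Rxra* stands highest in each library, from 67.1 in vehicle to 89.8 in UK5099, and *Pgr* lowest, from 13.8 in vehicle to 8 in UK5099.

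Most genes of the table were higher in the treated libraries than in vehicle, with a median ratio of 1.15 in UK5099 and 1.18 in lactate, so each ratio is read against that median gene. Of the 8 receptor genes, 6 lay above vehicle in UK5099, where 75.7% of all genes did, and 4 lay above the median gene. In lactate 7 lay above vehicle, where 83.1% of all genes did, and 4 lay above the median gene. The median ratio of the receptor genes was 1.23 in UK5099 and 1.19 in lactate. At the threshold of 1.5-fold that the study used for more accessible genes, 1 receptor gene passed in UK5099, where 9.05% of all genes did, and none in lactate, where 6.07% did. None fell to 0.5-fold, where 1.36% of all genes did in UK5099 and 0.513% in lactate. These counts lie near the background. The 0.5-fold threshold is farther from 1 than 1.5-fold is. At the inverse of 1.5, *Pgr* passed in UK5099, where 4.05% of all genes did, and none passed in lactate, where 1.78% did. Ratios ran from 0.580 to 1.66 in UK5099 and from 0.734 to 1.42 in lactate, with *Pgr* lowest and *Rarg* highest in both. The 2 comparisons share the vehicle library.

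**Figure D2:**
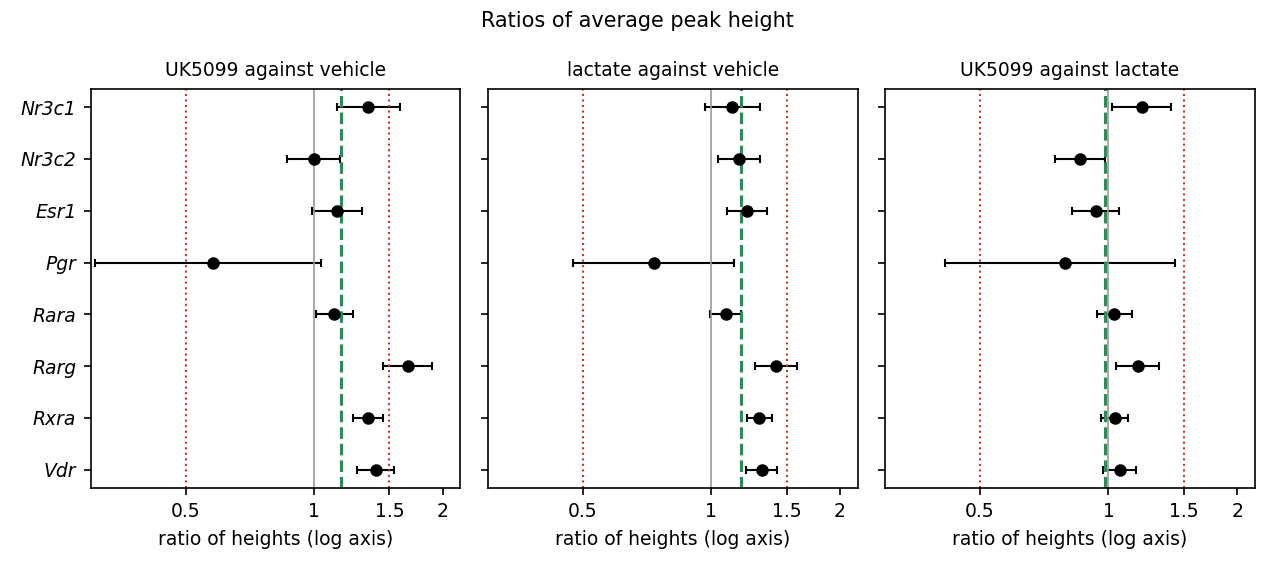
Ratio of average peak heights (log axis) for the 8 receptor genes in the 3 comparisons, with 95% counting intervals. The solid line marks a ratio of 1, the dashed line the median gene (1.15, 1.18 and 0.983) and the dotted lines the thresholds of 0.5 and 1.5. *Rarg* at 1.66 in UK5099 is the 1 point beyond these thresholds.

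Among the retinoid receptors *Rarg*, the retinoic acid receptor gamma gene of stratified epithelia (GeneID 19411, chr15:102234940-102257483, minus strand), differed most. Its height in vehicle was 45.2, compared with 74.8 in UK5099 and 64.0 in lactate, averaged over 6 regions. Both treated libraries lay above vehicle with no overlap of the intervals. The ratio was 1.66 (1.45 to 1.89) in UK5099 and 1.42 (1.26 to 1.59) in lactate, which is 1.43 and 1.20 times the median gene, and both intervals exclude the median gene. UK5099 was 1.17 times lactate (1.04 to 1.31), where the median gene was at 0.983. Called peaks numbered 3 in vehicle, 6 in UK5099 and 5 in lactate. In UK5099, 2 of these lie in 1 site at the gene start, and all 5 sites of *Rarg* were called in both treated libraries.

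A single region upstream of *Rarg* had a larger ratio than the rest of the gene. It lies at -5301 bp from the gene start, the first sequence shown above, and it is also listed for the neighbouring gene model *Gm9918*, whose only other region is that of *Mfsd5*. Subtraction of the *Mfsd5* height, which assumes that the genes list exactly the same merged regions, gave this region a height of 44.3 in vehicle, 114 in UK5099 and 68.3 in lactate. UK5099 was thus highest, lactate intermediate and vehicle lowest, with a ratio of 2.58 (1.91 to 3.49) in UK5099, 1.54 (1.16 to 2.06) in lactate and 1.67 (1.29 to 2.15) between UK5099 and lactate. The region was singled out after its values were seen, and it was called in the treated libraries alone, which favours a ratio above 1. Its vehicle height was high for a region without a vehicle peak, since 1.66% of 783 genes with a single region and no vehicle peak had a height of 44 or more. The other 5 regions of *Rarg* averaged 45.4 in vehicle, 67 in UK5099 and 63.1 in lactate, with ratios of 1.48 (1.27 to 1.71) and 1.39 (1.23 to 1.58). *Rarg* therefore lay under 1.5-fold in UK5099 without the upstream region, and also, at 1.43-fold, after scaling by the median of ratios. A further site of *Rarg* lies at 21835 bp in an untranslated exon and is also listed for the neighbouring integrin gene *Itgb7*. It was likewise called in both treated libraries and not in vehicle. This site is among the other 5 regions, so the same selection favours their ratios above 1.

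*Rara*, the retinoic acid receptor alpha gene (GeneID 19401, chr11:98937696-98974942, plus strand), had the smallest ratios to vehicle of the retinoid receptors among the 8 genes. In vehicle its height was 63.0, against 70.2 in UK5099 and 68.0 in lactate over 9 regions. The 3 values lay close together, with ratios of 1.12 (1.01 to 1.23) in UK5099 and 1.08 (0.993 to 1.17) in lactate. Relative to the median gene these are 0.966 and 0.918, so *Rara* lies below vehicle after scaling by the median of ratios. The intervals of *Rara* and *Rarg* did not overlap in either comparison with vehicle. *Rara* had 9 called peaks in vehicle, 8 in UK5099 and 8 in lactate, and 7 of its 9 sites were called in all 3 libraries. A pair of sites downstream, also listed for the gap junction gene *Gjd3*, averaged 31.0, 38.5 and 33.9 in vehicle, UK5099 and lactate, against 72.1, 79.3 and 77.7 for the other 7 regions.

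*Rxra*, the retinoid X receptor alpha gene (GeneID 20181, chr2:27677201-27763319, plus strand), was higher in both treated libraries. Its height in vehicle was 67.1, compared with 89.8 in UK5099 and 87.0 in lactate over 12 regions, the largest number among the 8 genes. Vehicle lay below both treated libraries without overlap, and the treated libraries overlapped each other. The ratios were 1.34 (1.24 to 1.45) in UK5099 and 1.30 (1.21 to 1.39) in lactate, both with intervals above the median gene, and UK5099 was 1.03 times lactate (0.960 to 1.11). Its highest called peak, 233 in UK5099, was the highest of the 8 genes. Called peaks numbered 10 in vehicle, 10 in UK5099 and 13 in lactate, and an intronic site at 38223 bp was called in both treated libraries and not in vehicle.

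*Vdr*, the vitamin D receptor gene (GeneID 22337, chr15:97854427-97908296, minus strand), had ratios close to those of *Rxra*. In vehicle its height was 52.6, against 73.3 in UK5099 and 69.0 in lactate over 10 regions. Both treated libraries again lay above vehicle without overlap, at 1.39 (1.26 to 1.54) in UK5099 and 1.31 (1.21 to 1.43) in lactate, with intervals above the median gene. UK5099 was 1.06 times lactate (0.971 to 1.16). The called peaks of *Vdr* numbered 9 in vehicle, 7 in UK5099 and 14 in lactate, but 3 of the lactate peaks lie in 1 site near the gene start. Of its 12 sites, 5 were called in lactate and not in UK5099. Called peaks depend on depth, so these counts are not set against the heights. The site at 49672 bp, in an intron near the 3′ end, was called in both treated libraries alone.

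*Nr3c1*, the glucocorticoid receptor gene (GeneID 14815, chr18:39410545-39487245, minus strand), was higher in UK5099 than in the other libraries. Its height in vehicle was 61.3, compared with 82 in UK5099 and 68.6 in lactate over 3 regions. The UK5099 value lay above vehicle without overlap, and lactate overlapped both. The ratio was 1.34 (1.13 to 1.58) in UK5099, an interval that includes the median gene, and 1.12 (0.967 to 1.30) in lactate, which is 0.952 times the median gene and so below vehicle after scaling by the median of ratios. UK5099 was 1.19 times lactate (1.02 to 1.40), above the median gene of that comparison. A pair of sites upstream of the listed start, at -4403 and -2835 bp and both within 1000 bp of an annotated alternative start, was called in all 3 libraries. A site at 3501 bp, inside the gene, was called in UK5099 alone, so called peaks numbered 2 in vehicle, 3 in UK5099 and 2 in lactate.

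*Nr3c2*, the mineralocorticoid receptor gene (GeneID 110784, chr8:76902508-77243639, plus strand), did not differ between UK5099 and vehicle beyond counting error. In vehicle its height was 60.8, against 60.6 in UK5099 and 70.5 in lactate over 5 regions. The UK5099 ratio of 0.997 (0.863 to 1.15) lay below the median gene, with an interval that just excludes it, and the lactate ratio was 1.16 (1.04 to 1.30), which is 0.986 times the median gene and so below vehicle after scaling by the median of ratios. The start-site region, at -396 bp and the only region of the neighbouring model *Gm10649*, had a height of 159 in vehicle, 167 in UK5099 and 163 in lactate. It was nearly level across the libraries, with ratios of 1.05 (0.860 to 1.28) and 1.03 (0.874 to 1.21). The other 4 regions, all inside the gene, averaged 36.2 in vehicle, 34 in UK5099 and 47.2 in lactate, with a ratio of 0.939 (0.757 to 1.16) in UK5099 and 1.30 (1.11 to 1.53) in lactate. Lactate was thus the highest of the 3 libraries in the gene body, where UK5099 was at 0.720 times lactate (0.588 to 0.877). The 1 site called in lactate alone, at 325460 bp, is among these 4 regions. Its inclusion favours lactate in these ratios.

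**Figure D3:**
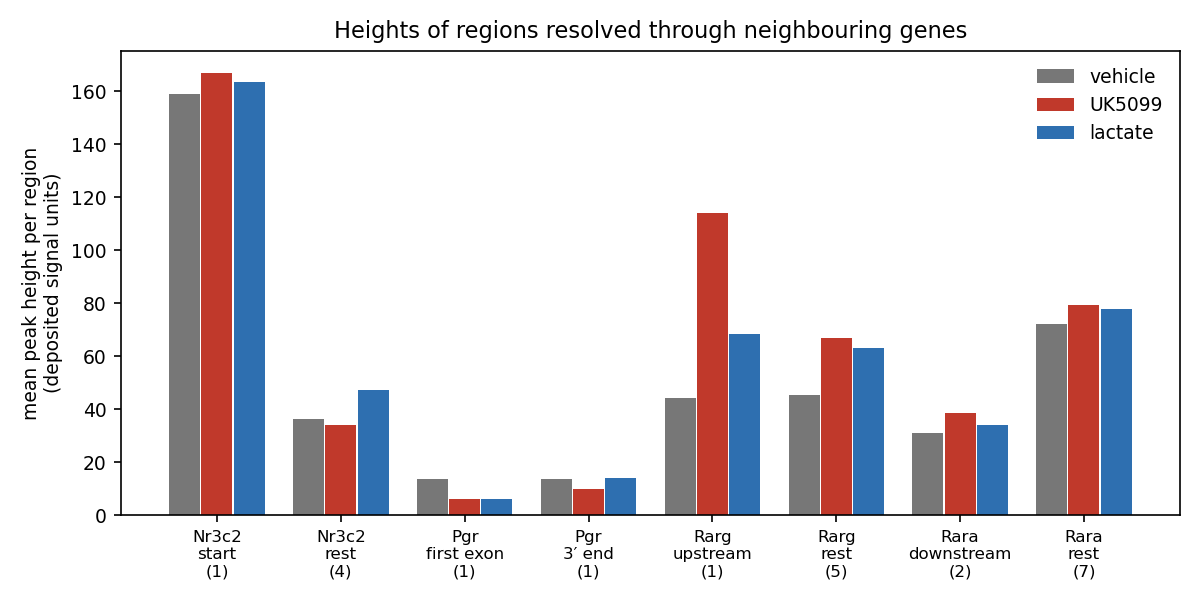
Mean peak height per region (deposited signal units) for parts of 4 receptor genes whose regions were separated on the assumption that a neighbouring gene lists exactly the same region, with the number of regions in parentheses. The upstream *Rarg* region rises from 44.3 in vehicle to 114 in UK5099, whereas the *Nr3c2* start-site region stays between 159 and 167.

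*Esr1*, the oestrogen receptor alpha gene (GeneID 13982, chr10:4612046-5003761, plus strand), had low heights over many regions. Its height in vehicle was 32.4, compared with 36.7 in UK5099 and 39.3 in lactate over 10 regions. Lactate lay above vehicle without overlap, and UK5099 overlapped both. The ratios were 1.13 (0.990 to 1.29) in UK5099, which is 0.981 times the median gene and turns below vehicle after scaling by the median of ratios, and 1.21 (1.09 to 1.35) in lactate, and both intervals include the median gene. *Esr1* was, with *Pgr*, an exception in that its highest called peak, 115, came from vehicle. No called peak of the treated libraries was taller. With that region set aside, at this height in every library, the other 9 regions averaged 23.2 in vehicle. They averaged at least 28.0 in UK5099 and 30.9 in lactate, which is at least 1.20-fold and 1.33-fold of vehicle. The region was picked because vehicle held the tallest peak there, so setting it aside favours higher ratios in the rest. The rest also include the sites called in treated libraries and not in vehicle, which likewise favours ratios above 1.

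*Esr1* had more sites called in both treated libraries and not in vehicle than any other of the 8 genes. These were 3, at -1790, 170242 and 296626 bp, while the site at 20210 bp was called in UK5099 alone. Called peaks numbered 5 in vehicle, 8 in UK5099 and 7 in lactate. In the opposite direction, the site next to the listed start, at 402 bp, was called in vehicle and UK5099 and not in lactate, and a coding exon site at 100786 bp, which is 181 bp from an alternative start, in vehicle and lactate and not in UK5099. None of its sites was called in vehicle alone.

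*Pgr*, the progesterone receptor gene and itself a classical target of oestrogen receptor alpha (GeneID 18667, chr9:8899833-8968611, plus strand), was the least accessible gene and the single one with called peaks in vehicle and none in either treated library. In vehicle its height was 13.8, against 8 in UK5099 and 10.1 in lactate over 2 regions. Vehicle was the highest of the 3, but the values rest on 48, 16 and 43 stacked reads, and the intervals overlap. The ratios were 0.580 (0.307 to 1.04) in UK5099 and 0.734 (0.475 to 1.13) in lactate, which both include 1 and both exclude the median gene. Vehicle had 2 called peaks and the treated libraries 0. Both sites of *Pgr* were thus called in vehicle alone, which favours ratios to vehicle below 1 for the gene and for each region. Of all genes, 1.12% had a called peak in vehicle and in neither treated library. The region in the first coding exon had a height of 13.8 in vehicle, 6 in UK5099 and 6.12 in lactate, with ratios of 0.435 (0.145 to 1.09) and 0.444 (0.208 to 0.907). The 3′ region, which is also the only region of *Gm16485*, was at 13.8, 10 and 14.1, so in lactate it was level with vehicle although no peak was called there.

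The 8 genes held 44 called peaks in vehicle, 46 in UK5099 and 54 in lactate. Over all genes the libraries held 32407, 32375 and 38579 distinct called peaks. Numbers of called peaks depend on depth, which relative to UK5099 was 1.74 in vehicle and 2.12 in lactate if the scaling evened out depth. A single site can also hold several called peaks of a library. In UK5099, 3 receptor genes had more called peaks than in vehicle and 3 had fewer, where 20.6% and 21.8% of all genes did. In lactate 5 had more and 2 fewer, where 37.9% and 9.87% of all genes did. Between the treated libraries 3 had more in UK5099 and 3 fewer, where 11.6% and 39.9% of all genes did. *Rarg* was among the 3 with more through 1 site that held 2 UK5099 peaks. The tallest called peak of a gene came from UK5099 for 6 of the 8 genes, where it did for 43.2% of all genes, from vehicle for 2, where it did for 9.52%, and from lactate for none, where it did for 47.3%.

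Joined across libraries when less than 700 bp apart, the peaks of the 8 genes formed 59 sites, of which 14 lay within 1000 bp of an annotated transcript start and 43 in introns. Of the 59, 8 were also listed for a neighbouring gene. Of these sites 33 were called in all 3 libraries, which is 55.9% against 59.5% of 42693 sites of all genes. A further 7 sites, or 11.9% against 6.55% of all sites, were called in both treated libraries and not in vehicle. They belonged to *Esr1* (3), *Rarg* (2), *Rxra* (1) and *Vdr* (1). Genes with at least 1 such site made up 15.9% of all genes and 37.2% of genes with 5 to 12 regions, and 4 of the 6 receptor genes with 5 to 12 regions were among them. Sites called in vehicle alone numbered 2, both of *Pgr*, sites in UK5099 alone 3 and sites in lactate alone 5.

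**Figure D4:**
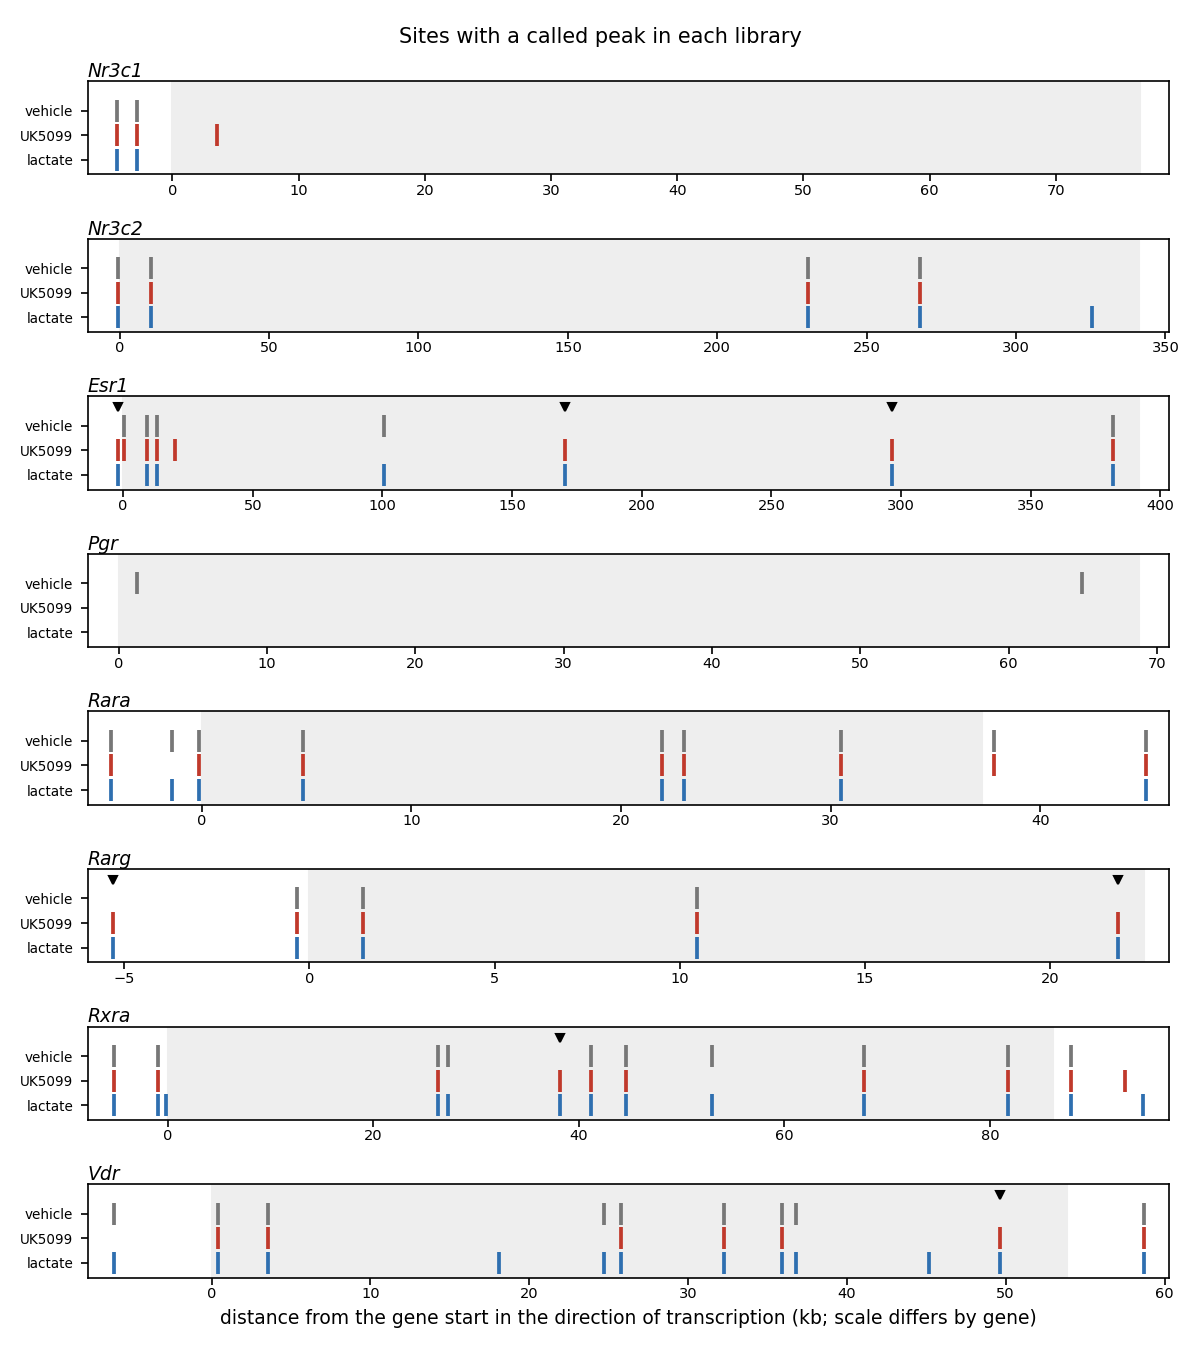
Sites with a called peak in each library, by distance from the gene start in the direction of transcription (kb, scale differing between genes). Shading marks the gene body, each tick is a site called in that library, and triangles mark the 7 sites called in both treated libraries and not in vehicle. *Pgr* has 2 ticks in vehicle and none in the treated libraries.

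Other nuclear receptor genes were listed for 35 of 39 symbols, and as a group they stayed with the median gene. In this and the following lists, the highest and lowest genes are named among those whose mean height was not below the lower quartile of all genes, and weaker genes can lie beyond them. Of all genes 9.05% reached 1.5-fold and 1.36% fell to 0.5-fold in UK5099, and 6.07% and 0.513% in lactate, which is the background for the counts in each list. The median ratio of the other nuclear receptor genes was 1.15 in UK5099 and 1.19 in lactate, against 1.15 and 1.18 over all genes. In UK5099 1 of the 35 reached 1.5-fold, *Esrra*, the oestrogen-related receptor alpha gene, at 1.54 (1.30 to 1.82), with heights of 87.6, 135 and 121 in vehicle, UK5099 and lactate. In lactate 1 reached it, the weak gene *Nr2e1* at 1.58 (0.984 to 2.59), named after its value was seen. None fell to 0.5-fold in either. *Nr2c1* was lowest in UK5099 at 0.924 (0.782 to 1.09), and *Nr2f2* highest in lactate at 1.40 (1.20 to 1.62) with *Nr1h3*, a liver X receptor gene, lowest at 0.972 (0.856 to 1.10). By distance between the pairs of log2 ratios to vehicle, among 24 such receptor genes, *Esrra* was nearest to *Rarg*, *Nr4a2* to *Rxra*, *Rxrb* to *Vdr*, *Nr1d2* to *Nr3c1*, *Nr2c2* to *Nr3c2*, *Nr1h2* to *Esr1* and *Nr5a1* to *Rara*. These distances ran from 0.067 to 0.110 on the log2 scale, and the gene nearest to *Pgr* was *Nr2c1* at 0.877. *Pgr* itself lies below that height limit. Without the limit, a choice made after seeing the data, *Nr5a2* was nearest to *Pgr* at a distance of 0.120, with ratios of 0.597 in UK5099 and 0.679 in lactate, while *Rora* became nearest to *Esr1* and *Rxrg* to *Rara*.

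Chaperones and coregulators that receptors work with had medians close to the median gene. Of 11 chaperone genes and 18 coactivator and corepressor genes, all were listed and none passed either threshold in any of the 3 comparisons, where 9.05%, 6.07% and 3.71% of all genes reached 1.5-fold. The chaperones had a median of 1.16 in UK5099 and 1.16 in lactate, with *Bag1* highest in UK5099 at 1.41 (1.16 to 1.71) and *Hsp90ab1*, which encodes a heat shock protein of the receptor complex, lowest at 0.973 (0.844 to 1.12). In lactate *Ptges3*, the p23 cochaperone gene, was highest at 1.31 (1.16 to 1.49) and *Hspa8* lowest at 1.09 (0.967 to 1.23). The coregulators had a median of 1.14 in UK5099 and 1.15 in lactate. *Ppargc1b*, a coactivator of oxidative metabolism, was highest in UK5099 at 1.45 (1.26 to 1.67) and *Ncoa3*, a steroid receptor coactivator, in lactate at 1.40 (1.26 to 1.55), with *Tbl1xr1*, a subunit of corepressor complexes, lowest in both at 0.918 (0.776 to 1.08) and 0.984 (0.862 to 1.12).

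Enzymes and carriers of the ligands were listed for 25 of 31 symbols, with medians of 1.09 in UK5099 and 1.14 in lactate. In UK5099 2 of 25 (8%) reached 1.5-fold, near the 9.05% of all genes, and 1 fell to 0.5-fold. *Rdh10*, which oxidises retinol on the way to retinoic acid, was at 1.51 (1.28 to 1.78), and the weak genes *Crabp1*, a retinoic acid carrier, at 2.42 (1.27 to 4.70) and *Cyp26c1*, a retinoic acid hydroxylase, at 0.283 (0.108 to 0.635) were named after their values were seen. *Crabp1* rested on 18, 25 and 23 stacked reads and *Cyp26c1* on 43, 7 and 33 in vehicle, UK5099 and lactate. *Aldh1a1*, which makes retinoic acid from retinal, was at 0.813 (0.671 to 0.982) in UK5099 and at 1.40 in lactate, with heights of 50.1, 40.8 and 70.3 in vehicle, UK5099 and lactate. In lactate 2 reached 1.5-fold, *Hsd17b4*, a peroxisomal hydroxysteroid dehydrogenase gene, at 1.93 (1.44 to 2.60) and *Fabp5*, a fatty acid and retinoic acid carrier named after its value was seen, at 1.62 (1.25 to 2.12). *Hsd17b4* had a height of 39.1 in vehicle, 36 in UK5099 and 75.4 in lactate, so the lactate library alone was high, and *Cyp2r1*, a vitamin D hydroxylase, was lowest there at 0.812 (0.611 to 1.08).

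Target genes of the receptors were taken from lists of known targets. Of 17 glucocorticoid and mineralocorticoid targets none reached 1.5-fold in UK5099 and 1 did in lactate, and their medians were 1.12 and 1.27. *Errfi1*, a feedback inhibitor of growth factor receptors, was the highest in both, at 1.48 (1.29 to 1.69) and 1.505 (1.34 to 1.69), and *Angptl4* lowest at 0.952 (0.796 to 1.13) and 1.08 (0.936 to 1.24). *Tat*, the liver tyrosine aminotransferase gene, was the 1 gene at 0.5-fold or less in UK5099, at 0.205 (0.0528 to 0.574) on 34, 4 and 45 stacked reads, and was named after its value was seen.

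Oestrogen and progesterone targets, of which 13 of 15 were listed with *Pgr* among them, had medians of 0.982 in UK5099 and 0.995 in lactate, below the median gene. Most of them are weak, and over the 4 whose mean height was not below the lower quartile of all genes the medians were 1.11 and 1.35, against 1.17 and 1.19 over all genes at that limit, so in lactate the list then lay above the median gene. *Igfbp4* reached 1.5-fold in UK5099 at 1.82 (1.34 to 2.48) and *Ihh* fell to 0.435 (0.224 to 0.792), both weak genes named after their values were seen, and none passed either threshold in lactate. *Wnt4*, a progesterone-responsive signal of the mammary gland, was highest in lactate at 1.49 (1.36 to 1.64), where it lay above the median gene, and at 1.19 (1.06 to 1.34) in UK5099. *Ccnd1*, the cyclin D1 gene, was lowest, at 1.01 (0.888 to 1.15) and 1.18 (1.07 to 1.31).

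Retinoid and vitamin D targets, 15 of 19 listed, had medians of 1.10 in UK5099 and 1.15 in lactate. *Dhrs3*, a retinal reductase gene induced by retinoic acid, was highest in lactate at 1.45 (1.30 to 1.63), and *Cyp26b1*, a retinoic acid hydroxylase, was lowest in both at 0.915 (0.747 to 1.12) and 0.879 (0.747 to 1.04). The calcium channel genes *Trpv6* and *Trpv5*, which vitamin D induces in intestine and kidney, were at 0.212 (0.0654 to 0.537) and 0.435 (0.173 to 0.964) in UK5099, and none passed either threshold in lactate. Both were named after their values were seen, and they rested on 41 and 32 stacked reads in vehicle and 5 and 8 in UK5099.

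Set directly against each other, the treated libraries gave ratios from 0.790 to 1.19 at the receptor genes. The median ratio of UK5099 to lactate was 1.03, and 5 of 8 genes lay above 1, where 45.9% of all genes did. None passed 1.5-fold or 0.5-fold, where 3.71% and 1.43% of all genes did, nor the inverse of 1.5, where 5.45% did. The intervals of *Nr3c1* and *Rarg* lay above the median gene, and the intervals of the other 6 included it. *Pgr* had the lowest ratio, 0.790 (0.415 to 1.43), and *Nr3c2* the next at 0.860 (0.750 to 0.984). The intervals of *Rara*, *Rxra*, *Vdr*, *Esr1* and *Pgr* included 1.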

How the data were processed

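The authors deposited a table of genes whose signal columns hold the average peak height of each library. Per the study's methods, tagmented cells were sequenced as read pairs, aligned with BWA, filtered for duplicates and ambiguous reads, extended in silico and stacked in bins. Peaks were called per library with MACS without a control (BWA, MACS3 and the build mm10 stand in the submitters' processing notes), merged into regions and assigned to genes. No shift for the transposase offset is stated. The deposited count of merged regions per gene and the text lists of called peaks were also used. Peaks of 1 further library in those lists were not analysed here, although they took part in the merging, so that the average of a gene can include a region without a called peak in the 3 libraries (*Esr1* has 10 regions and 9 sites, *Rarg* 6 and 5, and the part of that library in this was not tested).

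Groups came from the treatment in the labels. Heights were divided without a pseudocount. Height times the number of regions was a whole multiple of 0.575 in vehicle, 1.00 in UK5099 and 0.471 in lactate (within 0.05 of a step for at least 99.99% of genes), which gave stacked reads and exact conditional (Clopper-Pearson) intervals for ratios and exact Poisson intervals for heights. Stacked reads are coverage, not fragments, so no count test was run. Receptor genes rested on 48 to 1401, 16 to 1078 and 43 to 2215 stacked reads in vehicle, UK5099 and lactate. Overlapping reads of a pair and remaining copies make the intervals too narrow, and they hold no variation between cultures. Peaks were placed by their deposited distance to the gene (1 position within 1 bp for 99.97% of shared peaks), transcripts from GENCODE M21 and promoters from RefSeq, all on GRCm38. Sites matched the deposited number of regions for 86.8% of genes. The subtraction of shared regions assumes that both genes list exactly the same merged region. It and the 700 bp that joins peaks were chosen after seeing the data.

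The receptor genes and all lists were chosen with earlier results of these data known. From each list the highest and lowest gene of a comparison were named among genes at or above the lower quartile of mean height (36.2), and others are said to be named after their values were seen. The result of 1 list gene is not reported here. Alternatives were pseudocounts of 5.67 and 56.7, filters on height, 2 scalings, other thresholds, called peaks per gene and identical genes counted once. The code for the ratio and its interval was run on simulated independent Poisson counts. That check cannot show how well the interval covers real stacked reads, which overlap. Python 3.11.15, numpy 2.4.6, pandas 2.3.3, scipy 1.17.1 and matplotlib 3.10.9 were used.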

Additional observations from a re-analysis of the deposited data

How the results depend on the processing

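No paired analysis was possible because each treatment is 1 library. *Rarg* in UK5099, the 1 receptor gene past a threshold by height, stayed above vehicle in every alternative. Other receptor genes changed direction. With called peaks per gene, *Vdr* at 0.778 and *Rara* at 0.889 lay below vehicle in UK5099, and *Rara* at 0.889 in lactate. The median ratio of the 8 receptor genes was 1.23 in UK5099 and 1.19 in lactate. It was 1.07 in UK5099 and 1.01 in lactate when the libraries were scaled to the same total, and the same when scaled by the median of ratios. When called peaks per gene replaced heights, *Pgr* dropped out, as it had none in the treated libraries. The median ratio of the other 7 was then 1 in UK5099 and 1.3 in lactate, against 1 over all genes in both. The count of 1 gene at 1.5-fold or more in UK5099 (*Rarg*) became 0 with a pseudocount of the median height, with either scaling and with a threshold of 2. With called peaks per gene 3 of these 7 receptor genes reached 1.5-fold in UK5099, 2 in lactate and 1 in UK5099 against lactate. Of the 18890 listed genes, 2169, 4195 and 1174 did. The 1 gene at 0.5-fold in UK5099 against lactate was *Vdr*, with 3 of its lactate peaks in 1 site. By height its ratio there was 1.06. Of all listed genes, 2455 lay at or below 0.5-fold by called peaks in that comparison. With 1.5 and its inverse, 1 gene (*Pgr*) lay at the lower threshold in UK5099, as did 4.05% of all genes. After scaling by the median of ratios *Esr1* and *Rara* in UK5099 and *Nr3c1*, *Nr3c2* and *Rara* in lactate lay below vehicle. Sites called in both treated libraries and not in vehicle numbered 8 when peaks within 300 bp were joined and 7 when within 1000 bp, both chosen after seeing the data. *Pgr* rests on 16 stacked reads in UK5099, the fewest of any receptor gene.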
